A study of Mus musculus with 167 samples.

Results

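The tumour necrosis factor (TNF) superfamily and the TNF receptor superfamily were followed through 167 tumours of 119 mice with asbestos-induced mesothelioma. Members were all genes of the deposited count table whose mouse symbol begins with Tnfsf or Tnfrsf, together with Tnf itself. This rule gave 33 of 36118 genes, of which 13 are ligands and 20 are receptors. Other members of the same superfamilies that carry another symbol, such as Lta, Cd40lg, Cd40 and Fas, were kept in separate lists. Every mouse came from a cross of a Collaborative Cross male (an inbred line that mixes the genomes of several founder strains) with a MexTAg female, whose transgene drives the SV40 large T antigen from the mesothelin promoter and so in mesothelial cells. All carried this transgene and all were given 2 injections of 3 mg of crocidolite asbestos from Wittenoom into the peritoneal cavity, and no mouse was left without asbestos. The labels place 36 mice below and 83 mice above median survival, in 35 crosses that are called strains here by the name of the male's line. Age and sex of the mice are not used here, the labels name no treatment beyond asbestos, and tumours of the same mouse were summed before any comparison.

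TNF superfamily ligands are mostly membrane proteins that act as trimers, and many can be shed to act at a distance. Their receptors fall into those that carry a death domain, those that recruit TRAF adaptors and switch on NF-kappaB, and decoys that bind a ligand without signalling. In lymphocytes the families provide costimulation and B cell survival signals, and in epithelial, mesothelial and stromal cells they carry inflammatory, death and tissue repair signals. In mesothelioma, TNF released by macrophages that meet asbestos fibres is a much studied inflammatory signal.

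Libraries held 11138491 to 35399287 estimated counts, with a median of 22539831. A count of 3, taken as the floor, is 0.269 CPM (counts scaled to the library's total) in the shallowest mouse and 0.021 CPM in the deepest, and these floors cover counting error only. Each of the 10 mesothelial markers had counts in most mice, at levels that varied widely. Msln had a median of 18.9 CPM (0.597 to 1150 over 119 mice) and Wt1 of 10.3 CPM (lowest 0.0973 CPM). Krt8 had a median of 60.6 CPM and Krt18 of 50.7 CPM. Medians were lower for Upk1b (7.22 CPM), Krt19 (6.49 CPM), Upk3b (6.03 CPM), Krt7 (4.64 CPM), Lrrn4 (2.94 CPM) and Muc16 (2.80 CPM). Upk3b was at 0 in 1 mouse and Muc16 in 4 mice. In 22 libraries, markers of other tissues such as liver, pancreas and muscle took over 1% of the counts. A check of strain labels on 300 strain-specific genes, which needs other mice of the strain, covered 144 libraries, and 138 were nearest to the mean of their own strain. The other 6 were nearest to another strain, namely tumour 2 of mice Rogan-C3, LOX-D1, LAT-D3, LAT-F5 and CC059-F2 and tumour 1 of MEE-A3, and the strain, survival, score and pair comparisons were each repeated without them. Every one of these mice has another library.

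Among the ligands, the most abundant transcript per unit of length was Tnfsf12 (TWEAK, the ligand of Tnfrsf12a), with a median of 13.3 CPM per kb over the 119 mice. It was followed by the read-through gene Tnfsfm13 at 5.48 CPM per kb, by Tnfsf13 (APRIL, a plasma cell survival factor) at 4.17 CPM per kb and by Tnfsf9, the ligand of the T cell costimulator Tnfrsf9, at 3.74 CPM per kb. Tnfsf12, Tnfsf13 and Tnfsfm13 lie on 1 strand of chromosome 11, where Tnfsfm13 (chr11:69682577-69696098, GRCm38) spans the other two, so the authors' estimated counts may split reads between them and each value is uncertain. Tnfsf11 had 3.41, Tnfsf10 1.80, the B cell survival factor Tnfsf13b 1.30 and Tnf 1.01 CPM per kb, and the T cell ligands Tnfsf14, Tnfsf8 and Tnfsf4 had 0.681, 0.626 and 0.391 CPM per kb. At the low end, Tnfsf15 (TL1A, the ligand of Tnfrsf25) had 0.265 CPM per kb and Tnfsf18 (the ligand of Tnfrsf18) had 0.229 CPM per kb. Tnfsf15 was at 0 in 2 mice and Tnfsf18 in 3 mice. Tnf itself had a median of 1.66 CPM, with a lowest value of 0.0503 CPM and a highest of 21.9 CPM.

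**Figure D1:**
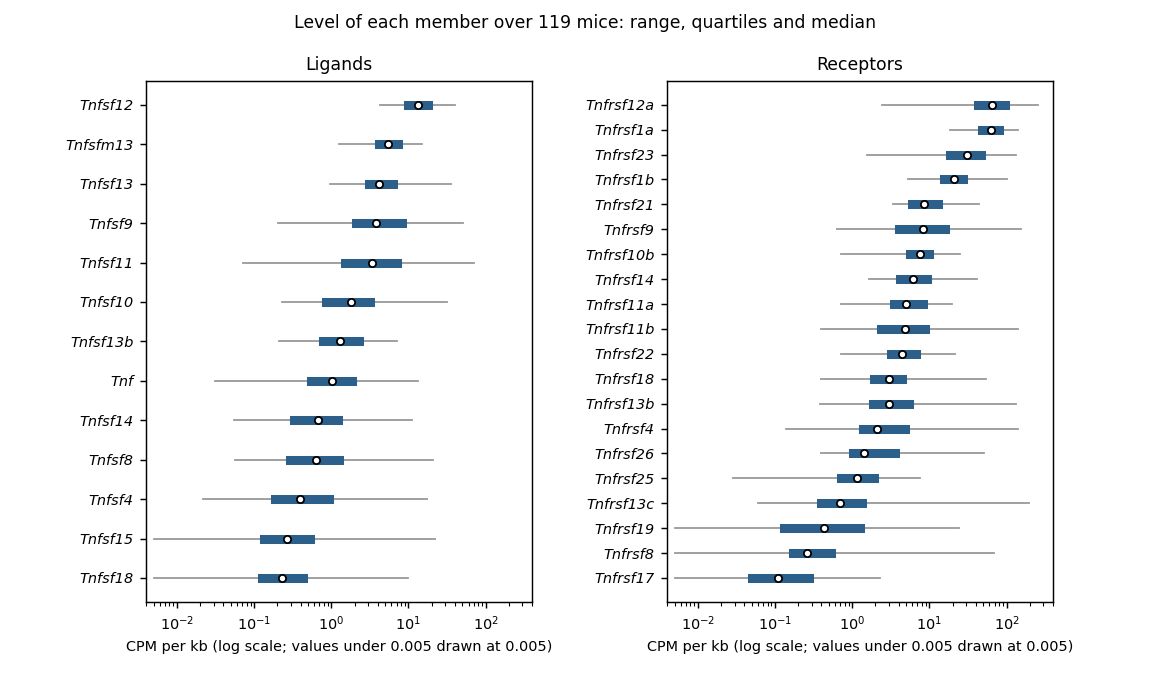
Level of each of the 33 members over 119 mice in CPM per kb on a log axis, ligands on the left and receptors on the right, with the thin line for the range, the thick bar for the quartiles and the circle for the median. Tnfrsf12a and Tnfrsf1a had the highest medians (64.7 and 63.6 CPM per kb) and Tnfrsf17 the lowest (0.110 CPM per kb).

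The highest receptors exceeded the highest ligand. Tnfrsf12a (Fn14, the TWEAK receptor, an injury-induced gene of epithelial and stromal cells) had a median of 64.7 CPM per kb and Tnfrsf1a (the death domain receptor of TNF) of 63.6 CPM per kb. The decoy TRAIL receptor Tnfrsf23 followed with 30.4 CPM per kb, and Tnfrsf1b, the TNF receptor of leukocytes, with 20.6 CPM per kb. A middle group from 8.58 to 4.37 CPM per kb held Tnfrsf21 (DR6, a death domain receptor), Tnfrsf9, Tnfrsf10b, Tnfrsf14, Tnfrsf11a, Tnfrsf11b and Tnfrsf22, in falling order. The receptors Tnfrsf18, Tnfrsf13b, Tnfrsf4, Tnfrsf26, Tnfrsf25, Tnfrsf13c, Tnfrsf19 and Tnfrsf8 followed, from 3.02 to 0.258 CPM per kb. All 33 members had counts, and 28 had a median of at least 1 CPM. Tnfrsf22, Tnfrsf23 and Tnfrsf26 are close paralogues next to each other on chromosome 7, so their estimated counts are uncertain in the same way. Tnfrsf17 (BCMA, a receptor of plasma cells) was the lowest member at 0.110 CPM per kb. It was at 0 in 24 mice and under 3 counts in 61 mice, and was not detectable at this depth in the mice at 0.

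Several members owed much of their summed level to 1 mouse. Tnfrsf8 (CD30, a receptor of activated lymphocytes) stood at 236 CPM in mouse CC044-F4, which is 34.7% of its CPM summed over all mice, against a median of 0.881 CPM. The same mouse was also the highest for Tnfrsf4 (OX40) at 144.9 CPM, for Tnfrsf18 (GITR) at 64.6 CPM, for Tnfsf14 (LIGHT) at 20.5 CPM and for Tnf. Its 3 tumours had Tnfrsf8 at 287, 260 and 158.6 CPM, so the high level was present in each of them. Mouse CC053-H1 was the highest for the B cell receptors of BAFF, with Tnfrsf13c at 382 CPM and Tnfrsf13b at 338 CPM. Mouse CC001-H3 was the highest for Tnfrsf9 at 323 CPM and for Tnfsf11 (RANKL) at 159.2 CPM. Outside the lymphocyte genes, mouse PEF2-A2 had 398 CPM of Tnfrsf11b (osteoprotegerin, a secreted decoy of RANKL), 14.4% of its summed CPM.

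Tumours of the same mouse were compared as a description, over 35 mice with several tumours. The SD of log2 CPM between tumours of a mouse, divided by the SD between mice of a strain, was lowest for Tnfsf15 (0.713 against 1.69, a ratio of 0.423) and Tnf (0.617 against 1.37, a ratio of 0.450). It was highest for Tnfrsf11b (1.29 against 1.32, a ratio of 0.977) and Tnfsfm13 (a ratio of 0.946). The median ratio over all genes was 0.672, so Tnf and Tnfsf15 lay below the median gene in this ratio and Tnfrsf11b above it. The ratio is not the spread between tumours itself, which was smaller for Tnfsfm13 (SD of 0.515) than for Tnf or Tnfsf15. The SD of Tnfrsf19 (TROY) between tumours was 1.61 with all libraries and 1.37 without the 6 libraries. In mouse Rogan-C3 its level was 0.433 CPM in tumour 2, nearest to strain CC046, and 182 CPM in tumour 1.

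Most members differed between strains. Among the 25 strains with at least 3 mice, 27 of the 33 members differed between strains (edgeR quasi-likelihood test over all strain terms, Benjamini-Hochberg adjusted p under 0.05 over all genes). Over all 20687 genes tested 14283 were called, which is 69%, so most genes of these tumours differed by strain. Of the members, 12 of 13 ligands and 15 of 20 receptors were called, and 10 of 11 lymphocyte-linked, 8 of 11 myeloid-linked and 8 of 10 tumour-linked members. These 3 groups were set from textbook knowledge of the cells that express each gene, and Tnfsfm13 was left out of them. Not called were Tnfrsf1b, Tnfrsf12a, Tnfrsf11a (RANK), Tnfrsf11b, Tnfsf13b (BAFF) and Tnfrsf25 (adjusted p of 0.0809 to 0.272). With limma-voom 16 members were called and 50.4% of all genes, and the count stayed at 27 without the 6 libraries.

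The lowest adjusted p values belonged to receptors of B and T cells. Here and in the following paragraphs on strains, each gene is shown in its strains of highest and lowest mean. For Tnfrsf13c, CC044 and MEE are added. A lack of overlap between such strains follows in part from that choice and is a description only. The share of all genes without such overlap was not counted. Tnfrsf13c (BAFF receptor) had 9.25, 87.7 and 382 CPM as the lowest, median and highest of 6 CC053 mice, and 0.774, 142 and 177 CPM in 7 CC044 mice, against 0.555, 0.642 and 0.700 CPM in 3 CC021 mice (adjusted p = 1.15e-11). Every CC053 mouse lay above every CC021 mouse, while the lowest CC044 mouse lay close to the CC021 level. The mean log2 CPM was 5.89 ± 2.23 (SD, n = 6) in CC053 and -0.57 ± 0.16 (SD, n = 3) in CC021. Strain accounted for 55.1% of the variance of log2 Tnfrsf13c, 57.8% without the 6 libraries, beside a median of 36.5% over all genes. Strain MEE was the third highest for this gene, with 0.814, 1.33 and 133 CPM as the lowest, median and highest of 4 mice. Its highest mouse, MEE-A3, holds tumour 1, nearest to strain CC044, with 267 CPM, and tumour 2 with 2.41 CPM.

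Tnfrsf8 had 1.06, 13.2 and 236 CPM in the 7 CC044 mice, against 0.175, 0.214 and 0.257 CPM in the 3 CC021 mice (adjusted p = 3.10e-11). Tnfrsf13b (TACI, a receptor of BAFF and APRIL on B cells) had 5.47, 122 and 217 CPM in CC044 mice, against 1.85, 2.94 and 4.05 CPM in 3 CC058 mice (adjusted p = 4.61e-11). All CC044 values of these receptors lay above those of the low strain. Tnfrsf4 had 2.67, 25.8 and 144.9 CPM in CC044, against 0.144, 1.69 and 1.962 CPM in 4 CC040 mice (adjusted p = 2.84e-08). Tnfrsf18, a costimulator of regulatory and effector T cells, had 2.37, 15.4 and 64.6 CPM in CC044, against 0.705, 1.32 and 2.35 CPM in CC040 (adjusted p = 2.56e-07). The lowest CC044 mouse exceeded the highest CC040 mouse for both genes, narrowly for Tnfrsf18.

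A pair of lymphocyte ligands was also highest in CC044 and lowest in CC040. Tnfsf8, the ligand of CD30, had 0.339, 19.4 and 43.3 CPM in CC044, against 0.216, 0.629 and 1.16 CPM in CC040 (adjusted p = 9.55e-06). Tnfsf14, a T cell costimulatory ligand of Tnfrsf14, had 0.387, 5.19 and 20.5 CPM in CC044, against 0.101, 0.314 and 0.648 CPM in CC040 (adjusted p = 3.37e-05). For both ligands the lowest CC044 mouse lay within the CC040 range. The myeloid-linked ligand Tnfsf13 had its highest mean in LAX, with 6.24, 11.8 and 38.2 CPM in 6 mice, against 1.46, 2.21 and 2.95 CPM in CC040 (adjusted p = 5.64e-05). These groups did not overlap.

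A further pair of members called by strain had other leading strains. Tnfrsf19, a receptor of epithelial and stem cells, had 2.08, 13.1 and 33.2 CPM in 3 Piping mice, against a range of 0 to 0.359 CPM in 4 CC040 mice (adjusted p = 5.57e-06). Tnfsf18 had 0.783, 0.960 and 20.2 CPM as the lowest, median and highest of 4 GIT mice, against 0 to 0.0944 CPM in CC040 (adjusted p = 2.90e-05). The Piping and GIT mice all lay above the CC040 mice, whose levels are near the floor. The GIT mean of Tnfsf18 rests on mouse GIT-K2. Without that mouse it fell to -0.09 on the log2 CPM scale, against 1.03 with it.

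Further members, chosen after their values were seen, led in strains other than CC044. Tnfrsf9 had 15.9, 94.2 and 323 CPM in 3 CC001 mice, against 2.20, 3.77 and 7.996 CPM in 3 KAV mice (adjusted p = 0.00142). Tnfsf11 had 11.97, 24.5 and 159.2 CPM in the same CC001 mice, against 1.13, 1.53 and 3.10 CPM in CC046 mice (adjusted p = 0.0304). Neither pair of strains, again those of highest and lowest mean, overlapped, and mouse CC001-H3 was the highest for both genes. Tnfrsf12a, not called by strain, had 83.5, 106.1 and 118.5 CPM as the lowest, median and highest in CC040, against 3.70, 21.1 and 163 CPM in CC044, where the ranges overlapped.

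**Figure D2:**
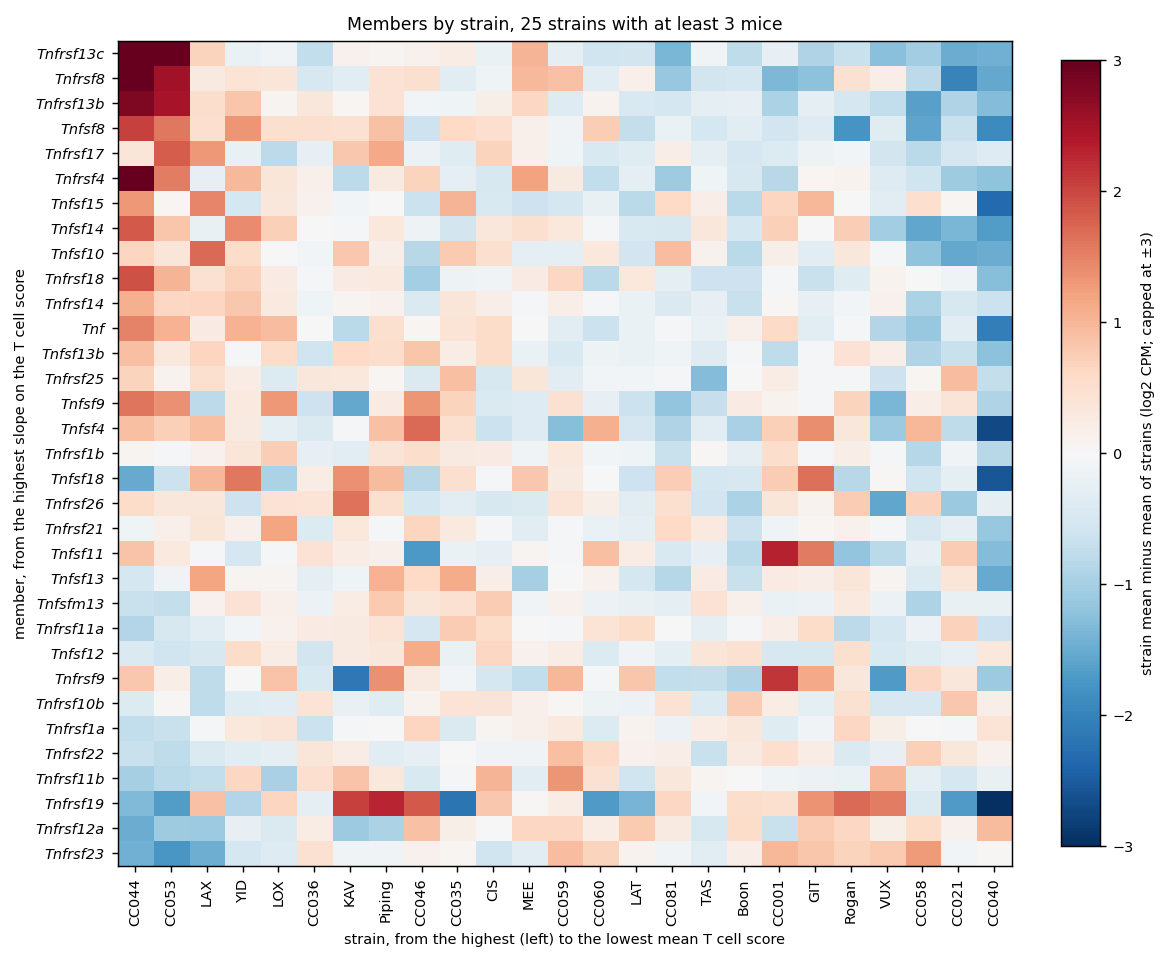
Mean log2 CPM of each of the 33 members in the 25 strains with at least 3 mice, as a difference from the mean of the strains, with colours capped at 3 either way. Strains run from the highest mean T cell score on the left to the lowest on the right, and members from the highest slope on that score at the top to the lowest at the bottom. CC044 and CC053 are red for the upper members and blue for Tnfrsf12a and Tnfrsf23 at the bottom, and CC040 shows the reverse for most of them.

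Over all members, CC044 had the highest mean of the 25 strains for 10 members, and CC040 the lowest for 12. The 10 were Tnf, Tnfsf8, Tnfsf9, Tnfsf13b, Tnfsf14, Tnfrsf4, Tnfrsf8, Tnfrsf13b, Tnfrsf14 and Tnfrsf18, and without the 6 libraries Tnfsf13b moved to CC046. CC044 was the lowest strain for 4 receptors, Tnfrsf1a, Tnfrsf11a, Tnfrsf11b and Tnfrsf12a, while CC040 was the highest for Tnfrsf12a. The T cell score, the mean centred log2 CPM of 10 T cell genes, had the same strains at its ends. CC044 was first with 2.76 and CC053 second with 2.37, CC021 was 24th with -1.64 and CC040 25th with -1.66. On the B cell score CC053 was first with 4.35 and CC044 second with 3.91, and on the fibroblast score CC044 was 24th with -1.53 and CC053 25th with -1.67. In whole tumours, fewer cells of a type and less RNA per cell cannot be told apart, and the share of the strain differences that goes with the number of lymphocytes was not tested.

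Promoters were read for members that moved together. RefSeq windows around the start of the gene (GRCm38.p6, mostly upstream of it) were found for 26 members, 30 windows in all. Shown first are the neighbouring genes Tnfrsf4 and Tnfrsf18 and the 2 BAFF receptors of B cells, because both pairs went together from mouse to mouse (r = 0.68 and r = 0.85). They hold neither motif searched.
Tnfrsf4, chr4:156013445-156013744, plus strand: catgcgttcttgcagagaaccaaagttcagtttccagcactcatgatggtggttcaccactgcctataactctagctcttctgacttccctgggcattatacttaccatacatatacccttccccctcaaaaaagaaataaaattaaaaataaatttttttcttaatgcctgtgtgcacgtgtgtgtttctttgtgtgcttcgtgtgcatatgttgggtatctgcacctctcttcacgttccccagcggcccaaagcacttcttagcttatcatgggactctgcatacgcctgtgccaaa
Tnfrsf18, chr4:156026072-156026371, plus strand: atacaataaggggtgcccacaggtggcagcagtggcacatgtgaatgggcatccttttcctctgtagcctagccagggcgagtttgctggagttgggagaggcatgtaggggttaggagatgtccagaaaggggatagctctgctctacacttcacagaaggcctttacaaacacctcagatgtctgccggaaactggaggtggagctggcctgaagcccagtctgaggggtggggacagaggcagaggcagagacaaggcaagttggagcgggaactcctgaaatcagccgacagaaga
Tnfrsf13b, chr11:61126505-61126804, plus strand: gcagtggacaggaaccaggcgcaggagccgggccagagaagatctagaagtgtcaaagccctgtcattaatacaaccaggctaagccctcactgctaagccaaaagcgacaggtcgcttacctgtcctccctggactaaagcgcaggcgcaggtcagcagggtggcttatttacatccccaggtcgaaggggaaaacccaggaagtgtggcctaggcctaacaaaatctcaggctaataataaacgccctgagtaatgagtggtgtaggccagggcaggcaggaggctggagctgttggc
Tnfrsf13c, chr15:82224331-82224630, minus strand: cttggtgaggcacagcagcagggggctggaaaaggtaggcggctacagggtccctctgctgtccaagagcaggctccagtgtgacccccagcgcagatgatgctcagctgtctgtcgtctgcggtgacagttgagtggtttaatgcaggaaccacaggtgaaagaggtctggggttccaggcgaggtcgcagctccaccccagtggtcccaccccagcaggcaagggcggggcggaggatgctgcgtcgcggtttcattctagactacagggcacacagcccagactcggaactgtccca

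The motifs were TGANTCA, the letters of an AP-1 site, which reads the same on both strands, and a form of the NF-kappaB site. The latter was GGGA and TTCC on either side of any 2 bases, searched on both strands. The AP-1 letters were in 6 of the 30 windows, of 5 members, beside 7.81% of all 32851 promoter windows of the same length. The NF-kappaB letters searched were in 0 of 30, beside 1.47% of all. Other forms of that site were not searched, such as gggatttccc, which the Tnfrsf9 window below holds. The 0 therefore does not show that the windows lack an NF-kappaB site. A match is a run of letters and not a shown binding site. The windows of Tnfrsf8 and Tnfsf14, among the members most different between strains, and of Tnfrsf9 each hold TGAGTCA, given in capitals. It begins 132, 160 and 15 bases before the start that the window surrounds, which for Tnfrsf9 is the downstream of 2 starts.
Tnfrsf8, chr4:145315115-145315414, minus strand: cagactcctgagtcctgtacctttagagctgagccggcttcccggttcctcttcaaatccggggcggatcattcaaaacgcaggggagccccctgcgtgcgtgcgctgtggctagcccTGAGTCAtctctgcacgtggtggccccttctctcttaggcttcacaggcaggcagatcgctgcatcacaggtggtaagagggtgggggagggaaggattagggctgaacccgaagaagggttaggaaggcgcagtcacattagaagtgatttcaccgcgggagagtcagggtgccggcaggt
Tnfsf14, chr17:57194132-57194431, minus strand: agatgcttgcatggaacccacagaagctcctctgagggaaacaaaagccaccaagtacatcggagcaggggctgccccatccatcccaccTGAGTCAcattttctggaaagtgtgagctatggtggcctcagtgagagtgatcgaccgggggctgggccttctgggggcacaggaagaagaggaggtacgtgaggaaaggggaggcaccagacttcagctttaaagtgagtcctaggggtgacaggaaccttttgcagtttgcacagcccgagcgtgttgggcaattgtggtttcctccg
Tnfrsf9, chr4:150927749-150928048, plus strand: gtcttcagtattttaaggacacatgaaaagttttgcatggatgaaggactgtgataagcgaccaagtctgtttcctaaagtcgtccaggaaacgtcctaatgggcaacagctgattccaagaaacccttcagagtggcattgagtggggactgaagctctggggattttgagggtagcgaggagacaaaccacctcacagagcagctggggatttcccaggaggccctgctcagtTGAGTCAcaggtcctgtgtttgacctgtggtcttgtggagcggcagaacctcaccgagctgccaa
The remaining matches were in Tnfsf13 and in the 2 windows of Tnfsf13b, which overlap and share 1 match, so that it is counted in both. The other window of Tnfrsf9 (chr4:150919905-150920204), upstream of the one shown, had none. The windows shown differ in base composition, with 43.7% G and C in Tnfrsf4, 55.3% in Tnfrsf18 and 61.7% in Tnfrsf13c.

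With the T cell, B cell, macrophage and mesothelial scores in the model, 14 of the 33 members still differed between strains, beside 51.9% of all genes. They were Tnfrsf19 (adjusted p = 0.000127), Tnfsf13, Tnfrsf10b, Tnfsf10, Tnfsf9, Tnfsf18, Tnfrsf4, Tnfsf12, Tnfrsf26, Tnfrsf9, Tnfsf14, Tnfrsf21, Tnfrsf1a and Tnfrsf12a. By group this was 7 of 10 tumour-linked, 4 of 11 myeloid-linked and 3 of 11 lymphocyte-linked members. The call was lost for Tnfrsf13c (adjusted p = 0.371), Tnfrsf13b (adjusted p = 0.483), Tnfrsf18 (adjusted p = 0.173) and Tnfrsf8 (adjusted p = 0.0756). With the T cell and B cell scores alone 20 members were called (57.4% of all genes), among them Tnfrsf8 (adjusted p = 0.0082) and Tnfrsf18 (adjusted p = 0.0485). With the 4 scores a call appeared for Tnfrsf12a (adjusted p = 0.0395), which had not been called before (adjusted p = 0.120). The scores contain no member, and the count stayed at 14 without the 6 libraries, but was 5 with limma-voom. The shares of all genes called in these alternatives are not given here.

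The members were then set against 5 marker scores, each fitted alone over the 119 mice, with slopes as the log2 change per SD of the score. On the T cell score 23 members had a slope past the threshold, beside 51.2% of all genes. Of these, 15 rose with the score (23.2% of all genes did) and 8 fell with it (27.9% of all genes). Among the lymphocyte-linked members 9 of 11 rose, with Tnfrsf13c the steepest at 2.42 ± 0.10 (SE), followed by Tnfrsf8 at 1.55 ± 0.10 and Tnfrsf13b at 1.37 ± 0.06. The exceptions were Tnfrsf9, with a slope of -0.19 ± 0.14 (adjusted p = 0.270), and Tnfsf11, with -0.07 ± 0.12 (adjusted p = 0.656). The sign of both turned with limma-voom, to 0.12 and 0.22, and that of Tnfsf11 with strain as a term, to 0.09. Among the tumour-linked members 8 of 10 fell with the T cell score. The steepest were the decoy receptor Tnfrsf23 at -0.78 ± 0.10, Tnfrsf12a at -0.69 ± 0.09 and Tnfrsf19 at -0.57 ± 0.25. The call of Tnfrsf19 was lost with limma-voom (-0.08, adjusted p = 0.762), with strain as a term (0.01, adjusted p = 0.985) and without the 6 libraries (-0.50, adjusted p = 0.137). With strain as a term Tnfrsf10b (-0.14, adjusted p = 0.0832) and Tnfrsf11b (-0.42, adjusted p = 0.0781) lost their calls too. The tumour-linked exceptions were Tnfsf10 (TRAIL, a death-inducing ligand), which rose by 0.76 ± 0.09, and Tnfrsf21, with a slope of 0.02 (adjusted p = 0.845). Over the 5 scores, tumour-linked members had their highest slope on the fibroblast score (6), macrophage (2), mesothelial (1) or T cell score (1). Myeloid-linked members had it on the mesothelial (4), T cell (3), macrophage (2), B cell (1) or fibroblast score (1). The group names are textbook labels, and the source cells in these tumours were not tested.

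The B cell score, correlated with the T cell score over the 119 mice (Pearson r = 0.88), gave much the same order. On it 25 members were called beside 50.4% of all genes, 15 upward (22.7% of all genes) and 10 downward (27.7%). Tnfrsf13c again had the steepest slope, 2.37 ± 0.04, before Tnfrsf8 with 1.61 ± 0.10 and Tnfrsf13b with 1.23 ± 0.05. The steepest falls were Tnfrsf23 at -0.71 ± 0.11, Tnfrsf19 at -0.68 ± 0.28 and Tnfsf18 at -0.64 ± 0.18. Of these, Tnfrsf19 lost its call with limma-voom (-0.14, adjusted p = 0.587), with strain as a term (0.08, adjusted p = 0.861) and without the 6 libraries (-0.54, adjusted p = 0.160). Tnfsf18 lost it with limma-voom (-0.15, adjusted p = 0.414) and with strain as a term (-0.17, adjusted p = 0.710). Myeloid-linked members that rose with both lymphocyte scores were Tnf, Tnfsf9, Tnfsf13b, Tnfsf15 and Tnfrsf14. With strain as a term the T cell slope of Tnfsf9 was 0.29 (adjusted p = 0.273). For Tnf the slopes were 0.61 ± 0.10 on the T cell and 0.56 ± 0.11 on the B cell score.

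The fibroblast score gave the opposite picture. On it 26 members were called beside 54.4% of all genes, 8 upward (19.7% of all genes) and 18 downward (34.7%). Tnfrsf11b rose by 0.75 ± 0.12, Tnfrsf19 by 0.68 ± 0.18 and Tnfrsf12a by 0.49 ± 0.11. The steepest falls were Tnfrsf13c at -1.97 ± 0.16, Tnfrsf8 at -1.14 ± 0.13 and Tnfrsf13b at -0.98 ± 0.10, and 9 of 11 lymphocyte-linked members fell. Tnf fell by 0.73 on this score. With strain as a term Tnfrsf19 (0.41, adjusted p = 0.237) and Tnfrsf8 (-0.49, adjusted p = 0.152) were no longer called. The fibroblast score was itself lower where the T cell score was higher (Pearson r = -0.44 over 119 mice), so the single slopes do not separate the 2 scores.

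**Figure D3:**
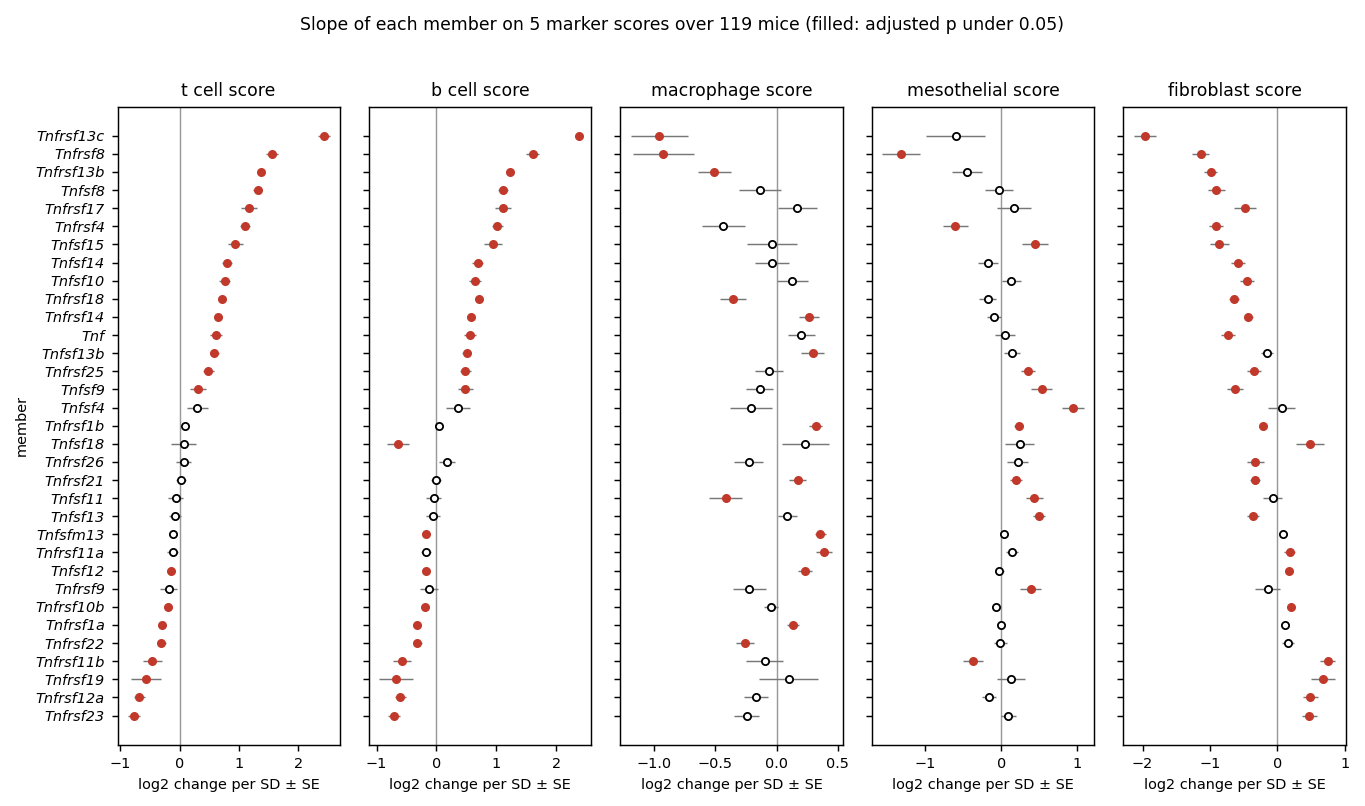
Slope of each of the 33 members on 5 marker scores over 119 mice, in log2 change per SD of the score with its standard error, each score fitted alone and filled points past an adjusted p of 0.05. On the T cell score the slopes run from 2.42 for Tnfrsf13c to -0.78 for Tnfrsf23, and on the fibroblast score from 0.75 for Tnfrsf11b to -1.97 for Tnfrsf13c.

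On the macrophage and mesothelial scores other members had the steepest rises. On the macrophage score 14 members were called beside 25.7% of all genes, 8 of them upward (8.99% of all genes) and 6 downward (16.7%). Tnfrsf11a (RANK, the receptor of osteoclast precursors) rose by 0.39 ± 0.07, the read-through gene Tnfsfm13 by 0.36 ± 0.04 and Tnfrsf1b by 0.32 ± 0.05. Tnf had a slope of 0.20 ± 0.11 on this score (adjusted p = 0.172). The steepest falls were Tnfrsf13c at -0.96 ± 0.23, Tnfrsf8 at -0.93 ± 0.25 and Tnfrsf13b at -0.51 ± 0.14. These falls did not hold under 2 alternatives. With strain as a term Tnfrsf13b turned to 0.51 and was called upward (adjusted p = 0.0312), Tnfrsf13c turned to 0.30 (adjusted p = 0.618) and Tnfrsf8 had -0.01 (adjusted p = 0.989), and with limma-voom none of the 3 was called (0.05, -0.46 and -0.15 in the same order). In all, 7 members were called on the macrophage score with strain as a term, and 7 with limma-voom. The shares of all genes called in these fits are not given here, so a loss particular to the members is not shown.

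On the mesothelial score 12 members were called beside 39.2% of all genes, 9 upward (18.8%) and 3 downward (20.4%). Tnfsf4, the ligand of OX40, had the steepest rise at 0.94 ± 0.15, followed by Tnfsf9 at 0.53 ± 0.14 and Tnfsf13 at 0.50 ± 0.08. Tnfsf11 and Tnfrsf9, the lymphocyte-linked members without a slope on the T cell score, rose with the mesothelial score by 0.44 ± 0.11 and 0.39 ± 0.14. The falls were Tnfrsf8 at -1.32 ± 0.25, Tnfrsf4 at -0.60 ± 0.17 and Tnfrsf11b at -0.37 ± 0.13. With strain as a term 7 members were called on the mesothelial score, and the 3 falls lost their calls (Tnfrsf8 -0.48, Tnfrsf4 -0.20 and Tnfrsf11b -0.01, adjusted p of 0.0726, 0.391 and 0.981), as did the rises of Tnfsf11 (0.25, adjusted p = 0.252) and Tnfrsf9 (0.11, adjusted p = 0.719). With limma-voom Tnfrsf4 (-0.27, adjusted p = 0.187), Tnfrsf11b (-0.05, adjusted p = 0.797) and Tnfrsf9 (0.04, adjusted p = 0.846) were not called. The share of all genes called on this score with strain as a term is not given here.

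Genes of the same pathway outside the naming rule were counted in 4 lists, beside 23.2% of all genes that rose and 27.9% that fell with the T cell score. Of the 6 other superfamily ligands, 5 rose with the T cell score (Ltb, Lta, Cd40lg, Fasl and Cd70), and of the 8 other receptors 5 rose and 2 fell. Of 18 adaptors and death signalling genes 6 rose (Traf1, Traf2, Traf5, Fadd, Birc3 and Ikbkb) and 0 fell in edgeR, and of 15 NF-kappaB factors and targets 10 rose and 1 fell. Between strains 5 of 6 ligands, 8 of 8 receptors, 9 of 18 adaptors and 12 of 15 NF-kappaB genes were called, beside 69% of all genes. The lowest adjusted p values in these lists were those of Lta (lymphotoxin, 1.11e-12) and Cd70 (1.62e-10) among ligands, Cd27 (6.73e-08) and Edar (4.12e-07) among receptors, Birc2 (7.03e-07) and Birc3 (4.11e-06) among adaptors, and Rel (2.64e-11) and Rela (1.14e-07) among NF-kappaB genes, all from edgeR. With the 4 scores in the model 1 of 6 ligands (Cd70), 3 of 8 receptors (Edar, Ltbr and Relt), 8 of 18 adaptors and 10 of 15 NF-kappaB genes were past the threshold, beside 51.9% of all genes.

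Survival class was the comparison the labels define, and no member was called in it. Of the 33 members 32 passed the filter on low counts (Tnfrsf17 did not) and 0 had an adjusted p under 0.05 with edgeR, where 1.56% of 17091 genes were called, 0.983% higher and 0.579% lower in mice below the median. At an unadjusted p under 0.05 there were 2 members with edgeR, 6 with DESeq2 and 1 with limma-voom, which is 6.25%, 18.8% and 3.12% of the members, beside 9.03%, 9.5% and 2.85% of all genes. The median log2 difference of the members, mice below minus mice above median survival, was -0.23, beside -0.02 over all genes, and 10 of 32 were positive. All 4 kidney and 4 of 7 reproductive tract markers were lower in mice below the median in this fit, and their part in the member differences was not tested. Without the libraries over 2 CPM of the kidney gene Umod 0 members were called and 0 had an unadjusted p under 0.05. None of the lists of other superfamily ligands, other receptors, adaptors and NF-kappaB genes held a called gene either.

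The members of lowest p were all lower in mice below the median, by less than the spread between mice. Tnf had 0.194, 1.35 and 10.3 CPM as the lowest, median and highest of the 36 mice below, against 0.0503, 1.69 and 21.9 CPM in the 83 mice above. Its log2 difference was -0.63 ± 0.31 (SE, edgeR p = 0.0445, adjusted p = 0.528), with a 95% interval from -1.23 to -0.02. Tnfrsf25 (DR3, the TL1A receptor of T cells) had 0.266, 1.52 and 10.7 CPM below, against 0.0468, 2.23 and 12.6 CPM above, a difference of -0.46 ± 0.23 (adjusted p = 0.534). Tnfrsf14 (HVEM, a receptor that both activates and inhibits T cells) had 2.37, 5.75 and 35.7 CPM below, against 1.95, 7.73 and 49.1 CPM above, a difference of -0.39 ± 0.20 (adjusted p = 0.563). For all these genes the ranges of the classes overlapped over most of their length.

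The next members in order of p were Tnfsf15, Tnfrsf1b and Tnfsf9. Tnfsf15 ranged from 0 to 22.1 CPM below, with a median of 0.775 CPM, against 0.0456 to 73.1 CPM above, with a median of 0.965 CPM (difference -0.74 ± 0.42, adjusted p = 0.640). Tnfrsf1b had medians of 72.4 CPM below and 81.5 CPM above (-0.24 ± 0.15, adjusted p = 0.693), and Tnfsf9 of 3.53 CPM below and 5.89 CPM above (-0.45 ± 0.31, adjusted p = 0.762). DESeq2 called 1 member, Tnfrsf13c, with a difference of -1.95 ± 0.41 (adjusted p = 0.000399, beside 1.67% of all genes called). The edgeR difference of Tnfrsf13c was -0.27 ± 0.59 (adjusted p = 0.965). Its medians were 1.41 CPM below and 1.38 CPM above, so the direction of the medians did not go with the DESeq2 value. The means did, with 0.96 ± 2.37 log2 CPM (SD, n = 36) below and 1.32 ± 2.38 (SD, n = 83) above. Without the 6 libraries 0 members were called and 0 had an unadjusted p under 0.05 in edgeR.

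**Figure D4:**
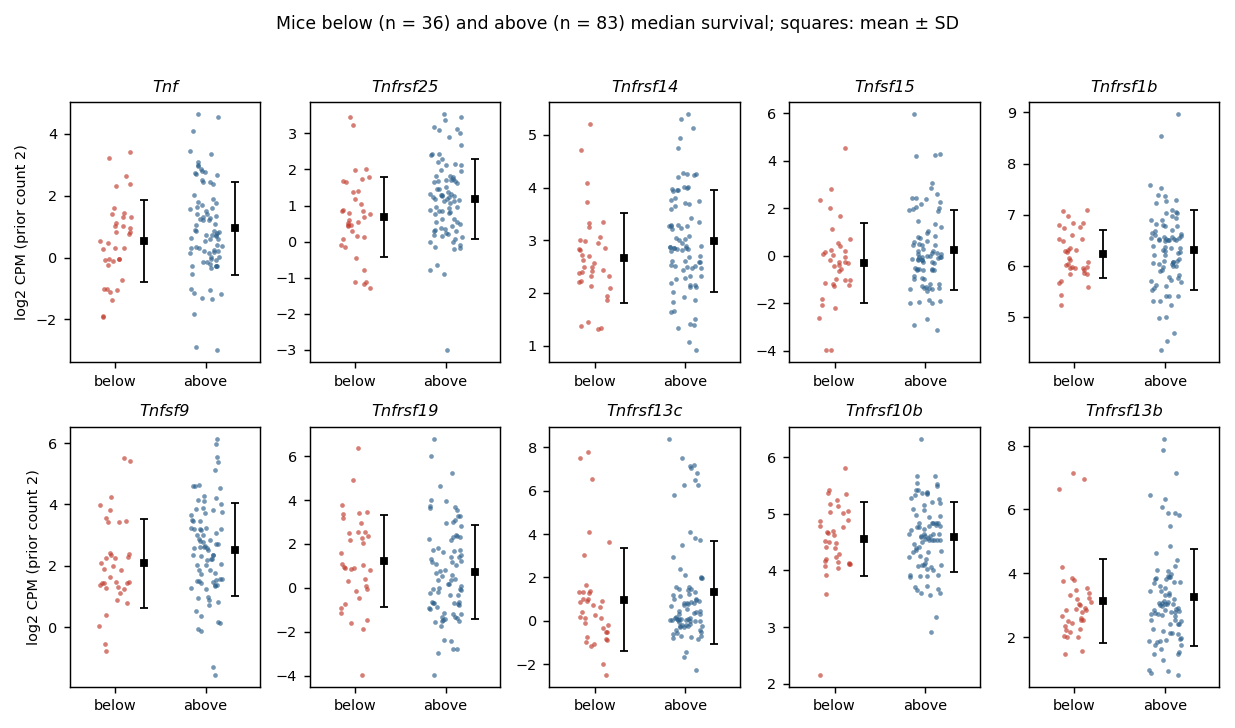
Log2 CPM (prior count 2) of the 10 members of lowest p in either survival comparison, with 36 mice below median survival on the left and 83 above on the right of each panel. Each point is a mouse and squares with bars are mean ± SD. The classes overlap in every panel, and Tnfrsf13c has a separate upper group of mice in both.

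Classes are unevenly spread over strains, so the comparison was repeated within the 13 strains that hold both, with 22 mice below and 35 above. Again 0 of 32 members were called, with edgeR calling 0 of 16481 genes (0.0%), DESeq2 calling 65 genes and no member, and limma-voom none. At an unadjusted p under 0.05 there were 5 members with edgeR, 9 with DESeq2, 3 with limma-voom and 3 with edgeR without the 6 libraries. These are 15.6%, 28.1%, 9.38% and 9.38% of the members, beside 11.4%, 16.2%, 8.49% and 10.2% of all genes. The median difference of the lymphocyte-linked members was -0.59 (1 of 10 positive), of the myeloid-linked -0.31 (2 of 11 positive) and of the tumour-linked 0.20 (7 of 10 positive), beside -0.01 over all genes. The marker scores were not tested, and their values were as follows. Over all mice the T cell score was -0.27 ± 1.57 (SD, n = 36) below and 0.12 ± 1.84 (SD, n = 83) above, a difference smaller than either SD. Within strain the difference was -0.93 for the T cell, -1.26 for the B cell, -0.82 for the plasma cell and -0.52 for the mesothelial score. It was 0.74 for the endothelium, 0.53 for the fibroblast, -1.12 for the reproductive tract, -0.09 for the macrophage and -0.02 for the cell cycle score.

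The summed level of the 10 T cell markers was 5.63, 25.04 and 710 CPM (lowest, median and highest) in mice below, against 3.46, 27.2 and 1229 CPM in mice above, and 2 of the 10 were at 0 in some mouse. The 8 B cell markers summed to 1.77, 21.1 and 2532 CPM below, against 1.80, 17.6 and 3227 CPM above, with 4 of the 8 at 0 in some mouse. The part of these scores in the member differences was not tested.

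Within strain the member of lowest p was Tnfrsf19, with a difference of 1.32 ± 0.46 (SE, edgeR p = 0.00592, adjusted p = 0.402). Its mean was higher below the median in 9 of 13 strains, most in VIT, where the 1 mouse below had 10.7 CPM and the 1 mouse above 0.0936 CPM. Over all strains its medians were 1.89 CPM below and 1.29 CPM above, with overlapping ranges. Tnfrsf14 differed by -0.64 ± 0.26 (adjusted p = 0.412) and was lower below the median in 9 of 13 strains. Tnfrsf13c differed by -1.54 ± 0.63 (adjusted p = 0.414) and was lower in 10 of 13 strains, by up to 4.31 on the log2 scale in YID. Tnfrsf10b (the TRAIL death receptor of the mouse), Tnfsf9 and Tnfrsf13b differed by 0.27 ± 0.13, -0.78 ± 0.38 and -0.69 ± 0.38 (adjusted p of 0.427, 0.435 and 0.472). Without the 6 libraries the 6 differences were 1.23, -0.49, -1.20, 0.27, -0.74 and -0.49 in the same order.

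Ligands and their receptors were compared over the 119 mice in 20 textbook pairs. Pearson correlations of log2 CPM passed the adjusted threshold in 15 of 20 pairs (permutation test with 100000 resamples, two-sided, adjusted over the 20 pairs), 11 of them positive and 4 negative. Spearman correlations passed in 14 pairs, and 11 of the 15 pairs passed with the same sign after strain means were removed (mice in strains with more than 1 mouse). The share of all pairs of genes that would pass was not counted, so these counts are not shown to be particular to ligands and receptors. The smallest p that the resampling can give is 1e-05. The correlations do not show that ligand and receptor are made by interacting cells.

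The Pearson correlations of Tnf with its receptors had opposite signs, but only the positive one also passed the threshold in rho and within strain. Tnf correlated with Tnfrsf1b at r = 0.56 (rho = 0.48, permutation p = 1e-05 for both, adjusted p = 2.22e-05 for r), 0.53 without the 2 mice farthest from the Tnf median and 0.53 within strain. With Tnfrsf1a it correlated at r = -0.25 (permutation p = 0.00591, adjusted p = 0.00844), where rho was -0.15 (adjusted p = 0.125) and the value within strain -0.27 (adjusted p = 0.0681). The TRAIL pairs were negative with the mouse death receptor Tnfrsf10b (r = -0.36) and with the decoys Tnfrsf22 (-0.30) and Tnfrsf23 (-0.53), and near 0 with Tnfrsf11b (0.02, adjusted p = 0.885). The correlation of Tnfsf10 with Tnfrsf23 was lower than that of Tnfsf10 with 99.4% of 15811 genes. Within strain the values were -0.31, -0.26 and -0.57 for Tnfrsf10b, Tnfrsf22 and Tnfrsf23.

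Most pairs of lymphocyte receptors were positive. Tnfsf13b correlated with its receptors Tnfrsf13b (r = 0.53), Tnfrsf13c (0.46) and Tnfrsf17 (0.44). Tnfsf14 with Tnfrsf14 reached 0.53, Tnfsf8 with Tnfrsf8 0.52 (rho = 0.29), Tnfsf15 with Tnfrsf25 0.51 and Tnfsf9 with Tnfrsf9 0.51. These 7 pairs had adjusted p = 2.22e-05 (permutation) and held within strain at r of 0.44 to 0.54. Of 15811 genes 0.696% had a higher correlation with Tnfsf9 than Tnfrsf9 has, and 5.71% had one with Tnfsf8 above that of Tnfrsf8. Smaller positive values were those of Tnfsf12 with Tnfrsf12a (0.27, rho = 0.16, 0.22 within strain), Tnfsf4 with Tnfrsf4 (0.25, 0.15 within strain) and Tnfsf11 with Tnfrsf11a (0.21, 0.15 within strain). Of 15811 genes 16.1%, 9.51% and 7.41% had a higher correlation with these ligands than the receptor has, in the same order.

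The pairs that missed the threshold were Tnfsf13 with Tnfrsf13b (-0.08) and with Tnfrsf17 (0.17, adjusted p = 0.0718), Tnfsf10 with Tnfrsf11b, Tnfsf11 with Tnfrsf11b (-0.01) and Tnfsf18 with Tnfrsf18 (-0.03). Tnfsf18 and Tnfrsf18 thus showed no relation at either sign, and their value was -0.02 within strain. All members of the 7 pairs above except Tnfrsf9 rose with the T cell and B cell scores, and the part of these scores in the correlations was not tested.

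**Figure D5:**
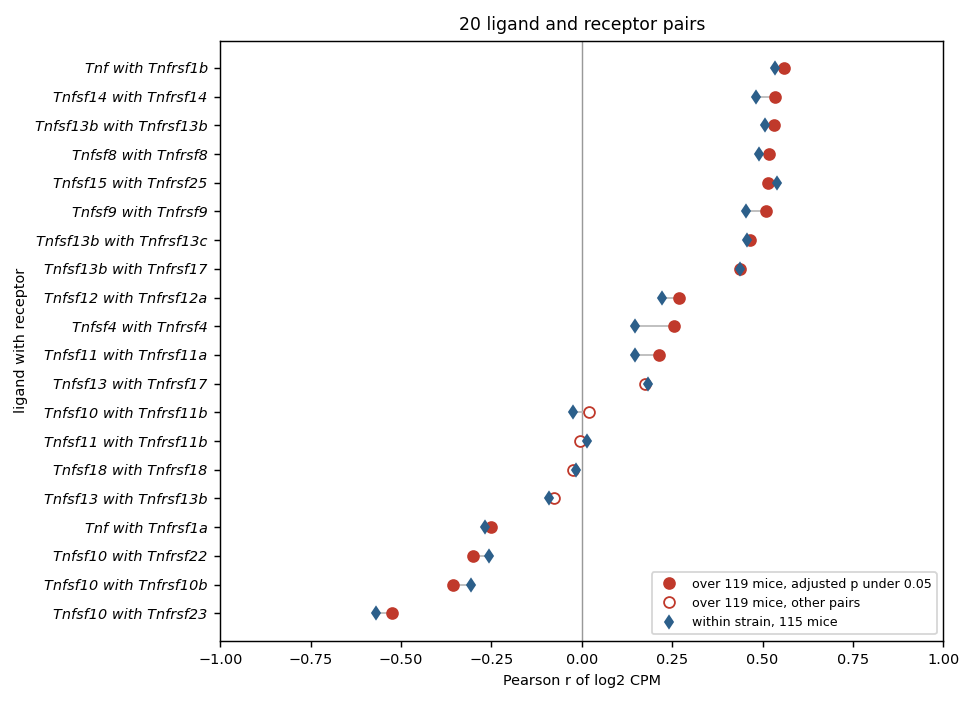
Pearson correlation of log2 CPM for 20 ligand and receptor pairs over 119 mice (circles, filled where the adjusted p is under 0.05) and within strain (diamonds). Values run from 0.56 for Tnf with Tnfrsf1b to -0.53 for Tnfsf10 with Tnfrsf23, and the diamonds lie on the same side of 0 as the filled circles in all 15 pairs.

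Between any 2 members, lymphocyte-linked genes went together, with a median r of 0.40 over 55 pairs, 53 of them positive. Lymphocyte-linked against tumour-linked members had a median r of -0.17, with 30 of 110 pairs positive. The closest pair of all was Tnfrsf13b with Tnfrsf13c (r = 0.85 over 119 mice), and Tnfrsf12a was least like Tnfrsf13c (r = -0.61). Neighbouring genes on a chromosome were not always alike. Tnfrsf22 and Tnfrsf23 (16148 bases apart on chromosome 7) had r = 0.71 and Tnfrsf4 and Tnfrsf18 (9552 bases apart on chromosome 4) r = 0.68, whereas Tnfrsf26 and Tnfrsf22, 6084 bases apart, had r = 0.14. Tnfsf15 and Tnfsf8, 86195 bases apart on chromosome 4, had r = 0.61 over all mice and 0.70 within strain. Without the 6 libraries the median r was 0.38 within the lymphocyte-linked members and -0.16 between them and the tumour-linked ones. As genes are not independent replicates, these values are descriptions.

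For 8 members the genes most alike over the 119 mice were looked up among genes with a mean of at least 1 CPM. Tnfrsf13c was most like the B cell genes Pax5 (r = 0.97) and Cd79a (0.96). Tnfrsf17 went with the plasma cell genes Jchain (0.74), Ighv9-3 (0.71) and Igha (0.70). Tnfrsf4 was most like Foxp3, the factor of regulatory T cells (0.79), then Serpina3g (0.76) and Map4k1 (0.75). Tnf was most like Ccl4, a chemokine (0.79), Slfn2 (0.78) and Acod1, the itaconate enzyme of activated macrophages (0.77).

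The other 4 members followed other genes. Tnfrsf9 was most like the glucose transporter Slc2a1 (0.60) and the glycolytic genes Pgam1 (0.59) and Pgk1 (0.59), at 0.64, 0.64 and 0.64 within strain. Tnfrsf12a was most like Msantd3 (0.82), Rab34 (0.81) and Rin1 (0.81). Tnfrsf11b was most like Ift81 (0.54), Zfp111 (0.53) and the hyaluronan synthase Has2 (0.53). Tnfsf11 was most like Kbtbd11 (0.57), Jak2 (0.56) and Acp5, the tartrate-resistant acid phosphatase of osteoclasts (0.54).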

How the data were processed

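Whole tumours were homogenised and sequenced as strand-specific mRNA libraries, per the labels' protocols. The authors deposited estimated counts per Ensembl gene as whole numbers. Kallisto 0.46.1 and GRCm38 are named in the submitters' processing notes, which also name DESeq2 without a role. A second deposited table named as normalized held 3682183 values, all equal to the first, and was not used. Gene symbols came from a GENCODE annotation of GRCm38. Of the columns 165 were joined to 1 sample by name, and 2 columns of mouse GIT-K1 to the mouse alone.

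Estimated counts were summed per mouse, because tumours of a mouse share its survival class. The p-values measure the spread between these mice only. Tests across all genes used edgeR 4.0.16 (TMM, filterByExpr, quasi-likelihood, Benjamini-Hochberg, threshold 0.05) in R 4.3.3, with limma 3.58.1 (voom) and DESeq2 1.42.0 as alternatives. Others were RLE size factors, no filter, a strain term, the deepest tumour of each mouse, and leaving out libraries with other tissues, Umod or late numbers. A further alternative, leaving out 6 libraries nearest to another strain, was chosen after seeing the data. Levels are log2 CPM with a prior count of 2, and correlations used 100000 permutations (SciPy 1.17.1). Marker scores hold no member. Scripts were tested on simulated data. In each survival comparison the 6 members of lowest p were named, in the strain test the 10 of lowest p, and on each score the 3 of steepest slope either way. The members and lists were chosen with earlier results of these data known. A gene among those most like Tnfrsf13c is not reported here.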

Additional observations from a re-analysis of the deposited data

Results flagged for a closer look

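In 16 combinations of a member and a strain of 4 to 10 mice, the highest or lowest mouse was compared with its group. The members were the 10 of lowest p in the strain test, and the strains those with the highest or lowest mean for each. Chance alone sets apart about 1 in 20 groups not chosen by their mean, so that rate does not hold for these. In 2 of the 16 a mouse stood apart. For Tnfrsf4 in strain CC040 mouse CC040-D3 had -2.28 log2 CPM, while the nearest of the other 3 mice had 0.75, a gap of 0.845 of the whole range (limit 0.829 for 4 mice). Its level of 0.144 CPM, at a total of 13879373 counts, is under the floor of 3 counts and limited by depth. For Tnfsf18 in strain GIT mouse GIT-K2, which is below median survival, had 4.41 log2 CPM, while the nearest of the other 3 mice had 0.11, a gap of 0.924 of the range.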

How the results depend on the processing

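Of the counts of called members or pairs under the alternatives, 46 stayed within 1.5 times the reported count and 6 did not. With DESeq2 1 member was called by survival class, against 0 with edgeR. With limma-voom 16 members were called by strain, 5 by strain given the marker scores and 7 on the macrophage score. With strain as a term 7 were called on the macrophage score and 7 on the mesothelial score. For these score fits and the fit given the scores, the shares of all genes called are not given here. The causes were not tested. All 182 values of the members of lowest p in the strain and survival tests kept their side of the threshold under the alternatives run for them. Where they have a direction, it was kept too. For the survival members this means that they stayed uncalled. Tnfrsf13c by survival class over all mice, which DESeq2 called and edgeR did not, is not among these values. Of the named score slopes 163 values kept side and direction, 20 lost the call and 9 turned in sign. The slopes of Tnfrsf10b and Tnfrsf11b on the T cell score are not among these values. With strain as a term the slope of Tnfrsf19 turned to 0.0084 on the T cell and to 0.077 on the B cell score, that of Tnfsf11 on the T cell score to 0.087, and on the macrophage score those of Tnfrsf13c to 0.30 and of Tnfrsf13b to 0.51. With limma-voom Tnfrsf9 turned to 0.12 and Tnfsf11 to 0.22 on the T cell score, and Tnfrsf13b to 0.045 on the macrophage score. Without libraries with over 1% of other tissues Tnfrsf21 turned to -0.00040 on the T cell score. Leaving out the 6 libraries lost 2 of the slope calls, those of Tnfrsf19 on the T cell and B cell scores. Of the pair correlations 75 values held. The correlation of Tnfsf18 with Tnfrsf18 turned to 0.0215 with a prior count of 0.5 and to 0.0191 without libraries with over 1% of other tissues, where it had missed the threshold at -0.03. Tnfsf11 with Tnfrsf11a missed the threshold under 3 alternatives, at r of 0.155 to 0.197. Levels near the floor of 3 counts, as for Tnfrsf17, for Tnfsf18 and Tnfrsf19 in strain CC040 and for Tnfrsf4 in mouse CC040-D3, are limited by depth. No paired analysis was possible because the survival classes are different mice and replicate numbers only name them.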
